A study of Mus musculus with 20 samples.

Results

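The AP-1 and immediate early genes described here are Fos, Fosb, Fosl2, Jun, Junb, Jund, Egr1, Atf3, Ier2 and Dusp1, taken from the table of raw counts by their symbols. They are 10 of 23329 symbols in the table, and all 10 passed the filter on low counts that left 15363 genes for testing. Their levels are given as CPM, a library's counts brought to a common total with edgeR's TMM scaling, in 20 libraries of polyadenylated RNA from sorted mouse cells of 6 groups, all of the strain C57BL/6. GEMM MG and GEMM BMDM (3 libraries each) are microglia and bone marrow derived macrophages of gliomas raised by injecting DF1, chicken fibroblasts that shed RCAS retroviruses, with RCAS-PDGFB-HA and RCAS shP53 into the brains of Flt3:Cre Rosa26:mTmG mice at 6 weeks of age. In these mice Cre driven by Flt3, a gene of blood progenitors, turns cells of bone marrow descent from TdTomato to GFP, so that the Cd45+Cd11b+Ly6c-Ly6g- tumour cells were sorted as GFP-TdTomato+ (MG) or GFP+TdTomato- (BMDM). GL261 MG and GL261 BMDM (3 libraries each) come from tumours of the GL261 mouse glioma line, normal MG (3 libraries) from normal brain, and blood monocytes (5 libraries) are Ly6C high cells of blood. For these 4 groups the sources used here do not give the genotype and age of the mice, nor how GL261 tumours, normal brain and blood were prepared.

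Immediate early genes are transcribed within minutes of a stimulus without the need for new protein. Growth factors, cytokines and cell stress reach them through MAP kinases, which act on serum response factor with its Elk partners and on CREB at their promoters. Fos and Jun family proteins pair through a leucine zipper to form AP-1, which binds the promoters and enhancers of cytokine, protease and growth genes, and in macrophages AP-1 acts beside the lineage factor PU.1. The dissociation of solid tissue at warm temperature is itself known to switch on these genes, so the handling of brain, tumour and blood can move them.

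In the GENCODE vM21 annotation (GRCm38), Fos lies at chr12:85473890-85477273, Fosb at chr7:19302696-19310051, Fosl2 at chr5:32135801-32157842 and Jun at chr4:95049034-95052222. Junb lies at chr8:84974484-84978718, Jund at chr8:70698949-70700616, Ier2 at chr8:84661331-84662852, Atf3 at chr1:191170296-191218039 and Dusp1 at chr17:26505590-26562128. Exons of 4 members overlap a gene on the opposite strand, and the sources used here do not say whether the counting used strand. The overlap is 877 bases of Jund (52.6% of its exon length) with the antisense gene Gm11175, 232 bases of Jun (7.3%) with Junos, 173 bases of Junb (7.5%) with Prdx2 and 11 bases of Dusp1 (0.3%) with Ergic1. Of the 10 genes Jund has the largest share of its exons in such an overlap in this annotation. The RefSeq promoter window of Jund used below ends at chr8:70697788, before the start given here, so its exon length and share depend on the annotation. The windows of Atf3 and Dusp1 lie inside the spans given here.

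Promoters from RefSeq (GRCm38.p6, 250 bases before to 50 bases after the start) were matched for 8 of the 10 members. The half-site of the cyclic AMP response element, TGACG on either strand, to which CREB and ATF proteins bind, was in 5 of these 8 (Fos, Fosb, Junb, Atf3 and Dusp1) and in 20.8% of all 32851 promoters of that length. The 3 promoters below are shown because they hold that half-site upstream of genes that were lower in microglia of both tumour models than in normal microglia, as described further on. Capitals mark TGACG on either strand, and in Dusp1 the pair of half-sites that overlap as the full element TGACGTCA, which 1.79% of all promoters hold.
Fos, chr12:85473640-85473939, + strand: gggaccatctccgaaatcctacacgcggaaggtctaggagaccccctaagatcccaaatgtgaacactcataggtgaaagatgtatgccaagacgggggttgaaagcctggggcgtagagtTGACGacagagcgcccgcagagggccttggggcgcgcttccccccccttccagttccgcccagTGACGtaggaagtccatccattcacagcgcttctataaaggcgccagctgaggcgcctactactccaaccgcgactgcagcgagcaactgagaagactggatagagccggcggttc
Junb, chr8:84978699-84978998, - strand: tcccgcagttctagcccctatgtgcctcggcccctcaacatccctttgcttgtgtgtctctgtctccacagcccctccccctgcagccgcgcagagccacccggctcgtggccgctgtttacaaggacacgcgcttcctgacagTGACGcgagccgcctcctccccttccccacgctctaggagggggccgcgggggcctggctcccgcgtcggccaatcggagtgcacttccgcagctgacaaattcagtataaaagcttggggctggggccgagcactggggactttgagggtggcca
Dusp1, chr17:26508423-26508722, - strand: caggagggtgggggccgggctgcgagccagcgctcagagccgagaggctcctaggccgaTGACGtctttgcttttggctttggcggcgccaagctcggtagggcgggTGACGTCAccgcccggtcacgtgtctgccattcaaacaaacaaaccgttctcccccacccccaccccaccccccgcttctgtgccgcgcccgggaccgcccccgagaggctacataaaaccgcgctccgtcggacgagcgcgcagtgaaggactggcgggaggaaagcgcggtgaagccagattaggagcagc
The half-sites start 129 and 66 bases before the start of Fos and 106 bases before that of Junb. Fos has the letters TATAAA 33 bases before its start, and Junb has them at the annotated start itself (13.6% of all promoters hold them). The half-sites of Dusp1 start 191, 143 and 140 bases before its start. The AP-1 site TGANTCA, which 7.81% of all promoters hold, and the CArG box bound by serum response factor (1.63%) were in none of the 8 windows. Egr1 and Ier2 had no window, and sequence outside the windows was not searched. The half-site was not in the windows of Fosl2, Jun and Jund, of which Jun and Jund were also lower in microglia of both models. Of the 5 genes with the half-site, Fosb was called lower in neither model and Atf3 in GL261 only. A match of letters is a description and not a binding site.

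Library totals ran from 18113450 to 36297826 counts in the 5 groups of brain and tumour cells and from 5077787 to 7801073 in blood monocytes, so counting error is largest in monocytes. Microglia markers (5 of 5 in the table) summed to 15290 to 16850 CPM in normal microglia, 4831 to 9255 in GEMM MG, 834 to 3790 in GL261 MG, 440 to 1348 in BMDM of GEMM tumours, 192 to 522 in BMDM of GL261 tumours and 92.3 to 183 in monocytes. Monocyte markers (5 of 5) summed to 3773 to 5637 CPM in blood monocytes, 324 to 1172 in both BMDM groups and at most 71.5 in all MG groups, with Ly6c2 at 0 in normal MG. Neutrophil markers (6 of 6) reached 1288 to 17890 CPM in blood monocytes and 1995 CPM in GEMM BMDM 68702, against at most 99.9 in all other libraries. The ribosomal RNA gene Rn45s took 13.5% and 14.3% of counts in monocytes 64820 and 64821. Xist was at 142 to 646 CPM in blood monocytes and at most 2.89 CPM in all other libraries, so sex and cell type cannot be told apart in comparisons with monocytes. The labels do not say that libraries of a group come from separate animals, so p-values measure the spread between these libraries.

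Normal microglia held the highest mean of 8 of the 10 genes. The 10 genes together made up 24400 to 31040 CPM in normal microglia, 7457 to 11570 in GEMM MG, 4540 to 8538 in GL261 MG and 2576 to 4707 in blood monocytes. In BMDM their sum was 7158 to 10620 CPM in GEMM and 6239 to 6726 CPM in GL261. Fosb and Fosl2 were the exceptions, with their highest means in GEMM BMDM. Blood monocytes held the lowest mean of Fos, Fosb, Junb, Egr1, Atf3 and Dusp1. Each gene gives 5 pairs of groups that are neighbours in the order of means, and the library ranges overlapped in 32 of these 50 pairs, beside 75.4% of such pairs over all genes tested.

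**Figure D1:**
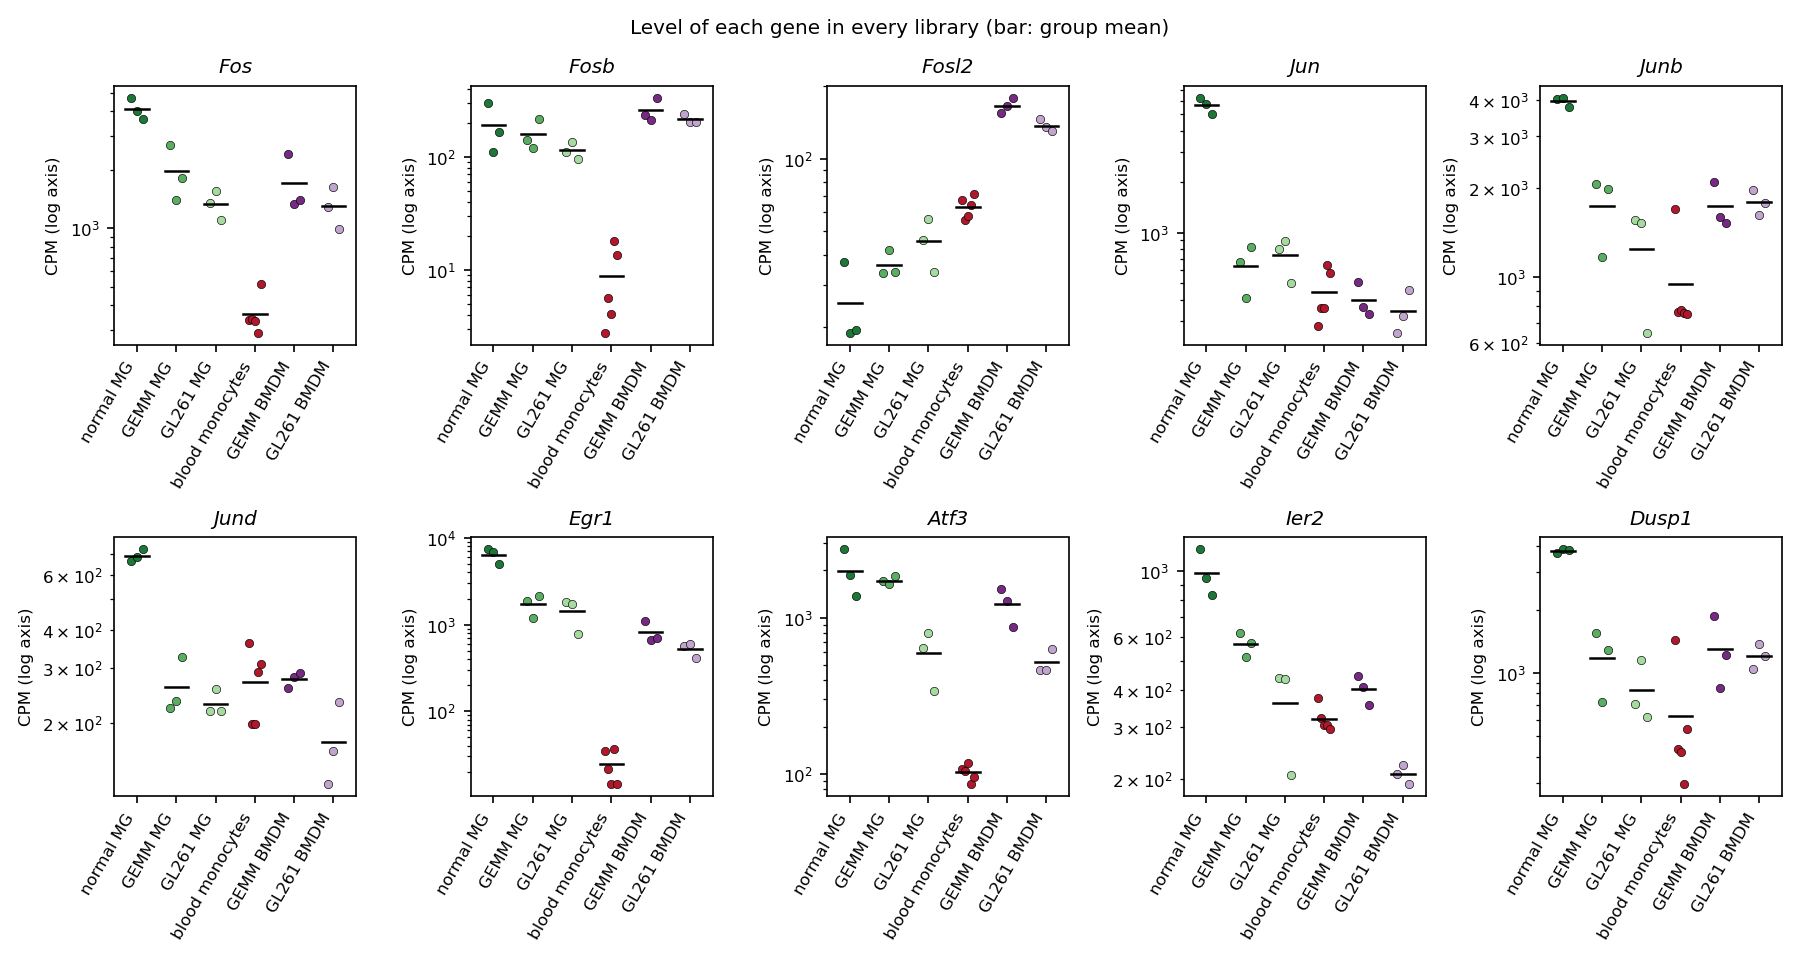
Each panel plots the CPM of 1 gene on a log axis against the 6 groups, with 1 point per library and a bar at the group mean. Jun shows the widest gap between normal MG (mean 5688 CPM) and tumour MG, and Fosb and Fosl2 are highest in the BMDM groups.

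Among the Fos family, Fos, the founding partner of Jun in AP-1, was measured at 4701, 4032 and 3644 CPM in normal microglia, 2684, 1404 and 1825 in GEMM MG and 1354, 1564 and 1101 in GL261 MG. In cells of bone marrow origin it stood at 2420, 1340 and 1401 CPM in GEMM BMDM, 1281, 1640 and 989 in GL261 BMDM and 339, 340, 331, 289 and 515 in monocytes. All normal MG libraries lay above every other library and all monocytes below, while the 4 tumour groups overlapped. The order of means was normal MG, GEMM MG, GEMM BMDM, GL261 MG, GL261 BMDM and monocytes, and only the steps at the top and bottom were free of overlap.

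Fosb, a close relative whose short splice form acts in lasting responses, was far lower, at 302, 109.6 and 165 CPM in normal microglia, 142, 119.5 and 215 in GEMM MG and 111, 136 and 96.1 in GL261 MG. Its levels were 236, 211 and 333 CPM in GEMM BMDM, 238, 204 and 202 in GL261 BMDM and 2.76, 5.66, 4.03, 17.9 and 13.5 in monocytes. Monocytes stood apart at the bottom, and the 5 other groups overlapped their neighbours from GEMM BMDM down to GL261 MG.

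Fosl2 (Fra-2), a family member that lacks the strong activation domain of Fos and persists longer after a stimulus, had another order. It was measured at 154, 165 and 179 CPM in GEMM BMDM and 146, 136 and 130 in GL261 BMDM. Monocytes held 67.3, 56.0, 57.9, 64.2 and 71.7 CPM, GL261 MG 46.0, 56.6 and 33.9, GEMM MG 33.5, 41.8 and 34.0 and normal MG 37.2, 19.0 and 19.5. Both BMDM groups lay above all other libraries and did not overlap each other, and the remaining neighbours in the order overlapped.

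Jun, the strongest activator of its family and the substrate of JNK, was at 6279, 5765 and 5020 CPM in normal microglia, 671, 413 and 819 in GEMM MG and 805, 891 and 501 in GL261 MG. Its values were 508, 361 and 328 CPM in GEMM BMDM, 255, 321 and 459 in GL261 BMDM and 279.7, 360, 358, 641 and 580.4 in monocytes. The lowest normal MG library, at 5020 CPM, lay far above the highest of all others, at 891 CPM, and the 5 lower groups overlapped their neighbours.

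Junb, which is a weaker activator than Jun and is abundant in myeloid cells, was at 4015, 4060 and 3763 CPM in normal microglia, 2072, 1171 and 1984 in GEMM MG and 1558, 1521 and 647 in GL261 MG. It was at 2109, 1598 and 1532 CPM in GEMM BMDM, 1969, 1626 and 1783 in GL261 BMDM and 1700, 759, 771, 758 and 751 in monocytes. Normal MG stood apart at the top. Monocyte 64817 and GL261 MG 80769 lay away from the rest of their groups, the first high and the second low.

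Jund, the least inducible Jun gene in most cells, stood at 663, 686 and 725 CPM in normal microglia and between 127 and 364 CPM in all other libraries. The means of the lower 5 groups ran from 277 ± 15.2 CPM (SD, n = 3) in GEMM BMDM to 174 ± 54.1 CPM (SD, n = 3) in GL261 BMDM, and each overlapped the next.

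Egr1, a zinc finger factor induced through serum response factor and Elk, spanned the widest range of the 10 genes, from 14.3 to 7415 CPM. It was measured at 7415, 6907 and 5024 CPM in normal microglia, 1883, 1204 and 2140 in GEMM MG and 1847, 1735 and 781 in GL261 MG. GEMM BMDM held 1101, 668 and 704 CPM, GL261 BMDM 563, 589 and 414 and monocytes 35.0, 21.6, 14.4, 36.3 and 14.3. Normal MG lay apart at the top, GEMM BMDM did not overlap GL261 BMDM, and monocytes lay apart at the bottom.

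Atf3, a stress-induced bZIP factor that pairs with Jun and restrains cytokine genes in macrophages, was at 2732, 1874 and 1381 CPM in normal microglia, 1703, 1627 and 1833 in GEMM MG and 638, 796 and 339 in GL261 MG. Its levels were 1524, 1277 and 874 CPM in GEMM BMDM, 462, 459.6 and 629 in GL261 BMDM and 108, 104, 118, 85.8 and 96.4 in monocytes. Here normal MG and GEMM MG overlapped, GEMM cells of both lineages lay above GL261 cells of both lineages, and monocytes were apart at the bottom.

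Ier2, a nuclear protein of the immediate early response, was at 1187, 947 and 829.9 CPM in normal microglia, 619, 514 and 574 in GEMM MG and 438, 436 and 207 in GL261 MG. It stood at 444, 409.8 and 354 CPM in GEMM BMDM, 208, 222 and 192 in GL261 BMDM and 374, 321, 304, 305 and 296 in monocytes. Normal MG lay apart at the top and GEMM MG apart from GEMM BMDM, and GL261 BMDM lay below monocytes without overlap.

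Dusp1, the phosphatase that switches off p38 and JNK and so closes the loop on the kinases that induce it, was at 3712, 3867 and 3832 CPM in normal microglia, 1542, 727 and 1280 in GEMM MG and 714, 1146 and 616 in GL261 MG. It was at 1861, 846 and 1210 CPM in GEMM BMDM, 1048, 1365 and 1209 in GL261 BMDM and 1439, 433, 420.5, 295 and 544 in monocytes. Only the step from normal MG to the next group was free of overlap, and monocyte 64817 lay within the range of the BMDM groups.

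Levels can be compared between genes only per length, here as mean CPM per kilobase of merged exons in the annotation. On that scale Jun (1784), Fos (1754) and Junb (1715) led in normal MG, followed by Egr1 at 1438 and Dusp1 at 1149 CPM per kilobase. Jun was only the seventh in GEMM MG at 199 and in GL261 MG at 229.6, where Fos led at 838 and 569.7. Junb led in GEMM BMDM at 759, in GL261 BMDM at 779 and in monocytes at 412 CPM per kilobase. Fosb and Fosl2 were the lowest in each tumour and microglia group, at no more than 41.6 CPM per kilobase. The sources used here do not name the annotation behind the counts, so these ranks rest on exon lengths of another annotation.

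The first comparison asked how microglia of a tumour differ from those of a normal brain. Jun was 8.97-fold lower in GEMM MG than in normal MG (log2 -3.17 ± 0.353 (SE), edgeR adjusted p = 2.08e-06) and 7.77-fold lower in GL261 MG (log2 -2.96 ± 0.349 (SE), edgeR adjusted p = 1.66e-06). Egr1 was 3.70-fold lower in GEMM MG (log2 -1.89 ± 0.385 (SE), edgeR adjusted p = 0.000723) and 4.43-fold lower in GL261 MG (log2 -2.15 ± 0.388 (SE), edgeR adjusted p = 0.000141). In GEMM MG 7 of the 10 genes were lower (Fos, Jun, Junb, Jund, Egr1, Ier2 and Dusp1), beside 20.9% of all genes tested, and 0 were higher, beside 23.0%. In GL261 MG 8 were lower, those 7 and Atf3, beside 27.2% of all genes, and Fosl2 was higher, beside 30.6%. Calls in either direction took in 43.8% of all genes in GEMM and 57.8% in GL261. Both comparisons share the same 3 normal MG libraries, and their values are given side by side.

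Of the other called genes, Dusp1 was 3.21-fold lower in GEMM MG (log2 -1.69 ± 0.465 (SE), edgeR adjusted p = 0.00689) and 4.61-fold lower in GL261 MG (log2 -2.21 ± 0.473 (SE), edgeR adjusted p = 0.000682). Jund differed by -1.40 ± 0.237 on the log2 scale in GEMM MG and -1.58 ± 0.238 in GL261 MG, Junb by -1.18 ± 0.341 and -1.67 ± 0.345, Fos by -1.06 ± 0.283 and -1.62 ± 0.286, and Ier2 by -0.80 ± 0.219 and -1.46 ± 0.222 (SE). Their edgeR adjusted p-values lay between 2.26e-05 and 0.00937. Atf3 was 3.38-fold lower in GL261 MG (log2 -1.76 ± 0.288 (SE), edgeR adjusted p = 5.46e-05), and in GEMM MG its difference was -0.21 ± 0.280 with an edgeR adjusted p of 0.562. Fosl2 went the other way and was higher in GL261 MG (log2 0.85 ± 0.218 (SE), edgeR adjusted p = 0.0029), while its difference of 0.53 ± 0.217 in GEMM MG missed the threshold (edgeR adjusted p = 0.0565). Fosb passed in neither, at -0.28 ± 0.462 and -0.75 ± 0.464 on the log2 scale.

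**Figure D2:**
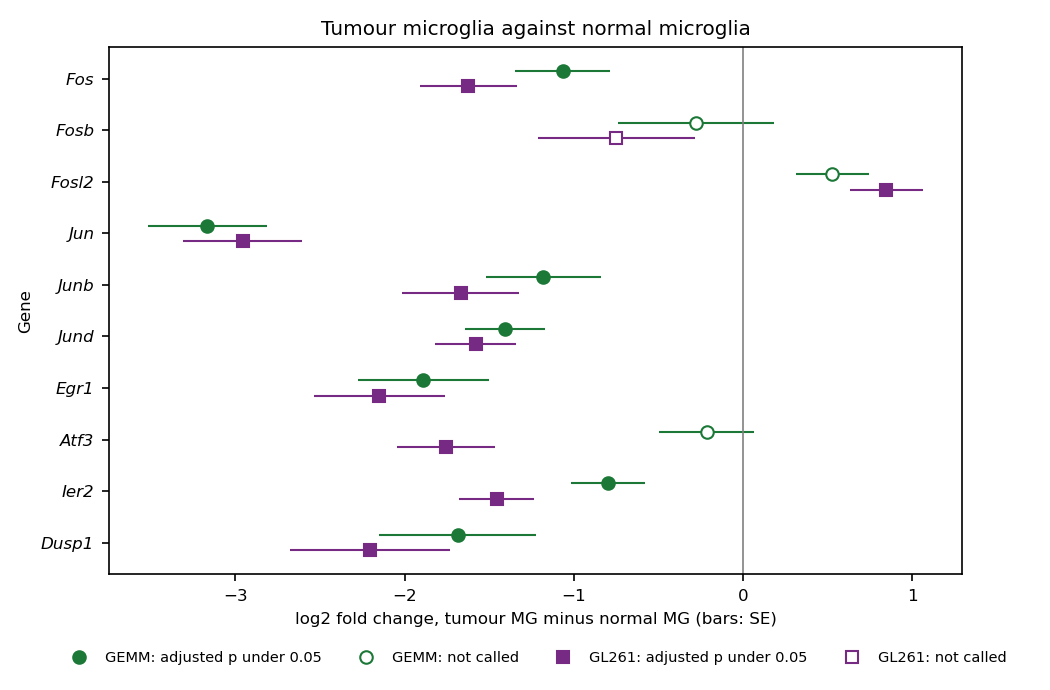
The log2 fold change of tumour MG over normal MG is plotted for each gene on the horizontal axis, with bars for the standard error, circles for GEMM and squares for GL261, and filled symbols where the adjusted p is under 0.05. Jun lies farthest to the left at -3.17 and -2.96, and Fosl2 is the only gene to the right of 0 in both models.

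Upstream of the genes, the list of MAP kinases and the factors they act on had 10 of 28 genes lower and 4 higher in GEMM MG, and 15 lower and 5 higher in GL261 MG. The shares of all genes were 20.9% lower and 23.0% higher in GEMM MG, and 27.2% and 30.6% in GL261 MG. Its median log2 difference was -0.27 in GEMM MG beside -0.019 over all genes, and -0.57 in GL261 MG beside 0.0061. Creb1, the gene of CREB, was at 101 CPM in normal microglia, 44.2 in GEMM MG (log2 -1.19 ± 0.126 (SE), edgeR adjusted p = 1.36e-06) and 29.7 in GL261 MG (log2 -1.76 ± 0.129 (SE), edgeR adjusted p = 1.09e-08). Its part in the differences of the 10 genes was not tested. Mef2a, a MADS-box factor on which MAP kinases act, was at 620.1 CPM in normal microglia against 193 and 136 (log2 -1.68 ± 0.224 and -2.19 ± 0.228, SE). Crem, a relative of Creb1 that is itself inducible, was higher in GEMM MG, at 66.9 against 20.4 CPM (log2 1.72 ± 0.295 (SE), edgeR adjusted p = 0.000158).

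Among other immediate early genes 12 of 32 were lower and 5 higher in GEMM MG, and 15 lower and 10 higher in GL261 MG. Their medians were -0.21 and -0.54, beside -0.019 and 0.0061 over all genes. Cebpd, an inducible C/EBP factor, was at 139 CPM in normal microglia, 26.0 in GEMM MG and 30.3 in GL261 MG (log2 -2.42 ± 0.253 and -2.20 ± 0.251, SE). Nr4a2, an orphan nuclear receptor, went the other way, from 1.44 CPM to 17.2 in GEMM MG (log2 3.58 ± 0.335 (SE), edgeR adjusted p = 3.37e-07) and 17.2 in GL261 MG (log2 3.58 ± 0.335 (SE), edgeR adjusted p = 1.45e-07). Of 15 other AP-1 and bZIP factors, 6 were lower and 2 higher in GEMM MG, and 6 lower and 5 higher in GL261 MG. Batf2, a partner of Jun in interferon responses, was at 0.818 CPM in normal microglia, 3.37 in GEMM MG and 19.7 in GL261 MG (log2 4.58 ± 0.368 (SE), edgeR adjusted p = 3.01e-08). Of 19 feedback inhibitors, 7 were higher and 5 lower in GEMM MG, and 6 higher and 4 lower in GL261 MG.

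Most of the 23 genes listed as known AP-1 targets in myeloid cells were higher in tumour MG. In GEMM MG 17 were higher and 0 lower, beside 23.0% and 20.9% of all genes (median log2 1.76 beside -0.019). In GL261 MG 14 were higher and 2 lower, beside 30.6% and 27.2% (median 1.37 beside 0.0061). The list was chosen with earlier results of these data known, so the counts can reflect that choice. Cd44, a matrix receptor, was at 1.53 CPM in normal microglia, 44.4 in GEMM MG (log2 4.85 ± 0.386 (SE), edgeR adjusted p = 6.13e-08) and 103 in GL261 MG (log2 6.06 ± 0.405 (SE), edgeR adjusted p = 4.82e-09). Spp1, a secreted matrix protein, was at 17.5, 1747 and 797 CPM, and Plaur, the urokinase receptor, was at 67.5 CPM in normal microglia and 269 in GEMM MG (log2 2.00 ± 0.235 (SE), edgeR adjusted p = 3.55e-06). Genes on this list answer to other factors too, so their levels are no measure of AP-1.

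Heat shock genes also respond to handling. Of 14 heat shock genes 5 were lower and 2 higher in GEMM MG, beside 20.9% and 23.0% of all genes. In GL261 MG 6 were lower and 3 higher, beside 27.2% and 30.6%. Their median log2 difference was -0.46 in GEMM MG beside -0.019 over all genes, and -0.56 in GL261 MG beside 0.0061. Their summed level was 7339 to 8567 CPM in normal microglia, 4782 to 7296 in GEMM MG and 4708 to 5965 in GL261 MG. Hspa1a, the inducible chaperone Hsp70, was at 495 CPM in normal microglia and 54.6 in GEMM MG (log2 -3.18 ± 0.560 (SE), edgeR adjusted p = 0.000197), though it can share reads with its near-identical copy Hspa1b. Dnajb4, its cochaperone, was at 158 CPM against 45.5 and 31.4 (log2 -2.34 ± 0.293 in GL261, SE), whereas the mitochondrial chaperone Hspe1 was higher, from 35.9 CPM to 76.2 and 110.2. Neuron markers (5 of 5) summed to 17.0 to 25.7 CPM in normal microglia, 6.00 to 6.51 in GEMM MG and 12.8 to 17.8 in GL261 MG, and markers of oligodendrocyte precursors or glioma cells (5 of 5) to 1.55 to 4.01, 127 to 184 and 363 to 782 CPM. In bulk samples fewer cells of a type and less RNA per cell cannot be told apart. The part of handling, of these other cells and of the lower microglia markers in the differences of the 10 genes was not tested.

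Leaving out 1 library ended the call of Junb in GEMM MG (without GEMM MG BB30101, edgeR adjusted p = 0.062) and of Ier2 in GEMM MG (without normal MG 67572, adjusted p = 0.0537). Without normal MG 67572 Fosl2 was called higher in GEMM MG too (log2 0.94, adjusted p = 0.00105), and its call in GL261 MG was lost in a fit of only those 2 groups (adjusted p = 0.0512).

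Macrophages in the tumour were next compared with blood monocytes, the circulating cells from which such macrophages arise. Egr1 was 33.9-fold higher in GEMM BMDM (log2 5.08 ± 0.360 (SE), edgeR adjusted p = 3.13e-09) and 21.5-fold higher in GL261 BMDM (log2 4.42 ± 0.351 (SE), edgeR adjusted p = 9.97e-09). Fosb was 30.6-fold higher in GEMM BMDM (log2 4.94 ± 0.456 (SE), edgeR adjusted p = 7.65e-08) and 25.3-fold higher in GL261 BMDM (log2 4.66 ± 0.453 (SE), edgeR adjusted p = 1.11e-07). In GEMM BMDM 7 of the 10 genes were higher (Fos, Fosb, Fosl2, Junb, Egr1, Atf3 and Dusp1), beside 31.6% of all genes tested, and 0 were lower, beside 25.7%. In GL261 BMDM the 7 genes Fos, Fosb, Fosl2, Junb, Egr1, Atf3 and Dusp1 were higher, beside 34.1%, and Jund and Ier2 were lower, beside 28.9%. In either direction 57.3% of all genes were called in GEMM and 63.0% in GL261. The monocyte libraries are the same in both comparisons.

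Atf3 was 11.9-fold higher in GEMM BMDM (log2 3.58 ± 0.255 (SE), edgeR adjusted p = 3.37e-09) and 5.04-fold higher in GL261 BMDM (log2 2.33 ± 0.248 (SE), edgeR adjusted p = 3.12e-07). Fos was higher by 2.25 ± 0.246 and 1.84 ± 0.245 on the log2 scale and Fosl2 by 1.39 ± 0.189 and 1.12 ± 0.190 (SE), with edgeR adjusted p of 5.9e-07 to 6.44e-05. The library ranges of Fos, Fosb, Fosl2, Egr1 and Atf3 did not overlap with monocytes in either model, nor did those of Ier2 in GL261. That made 5 of 10 genes in GEMM, beside 51.9% of all genes tested, and 6 of 10 in GL261, beside 56.7%. Smaller differences were those of Junb, at 0.88 ± 0.296 (edgeR adjusted p = 0.0167) and 0.92 ± 0.295 (0.0118), and Dusp1, at 1.06 ± 0.397 (0.0298) and 0.95 ± 0.397 (0.0457). Jun passed in neither model, at -0.15 ± 0.292 and -0.36 ± 0.294. Jund and Ier2 were lower in GL261 BMDM, at -0.64 ± 0.213 (edgeR adjusted p = 0.014) and -0.63 ± 0.199 (0.0111), and their values in GEMM BMDM were 0.026 ± 0.208 and 0.33 ± 0.193.

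**Figure D3:**
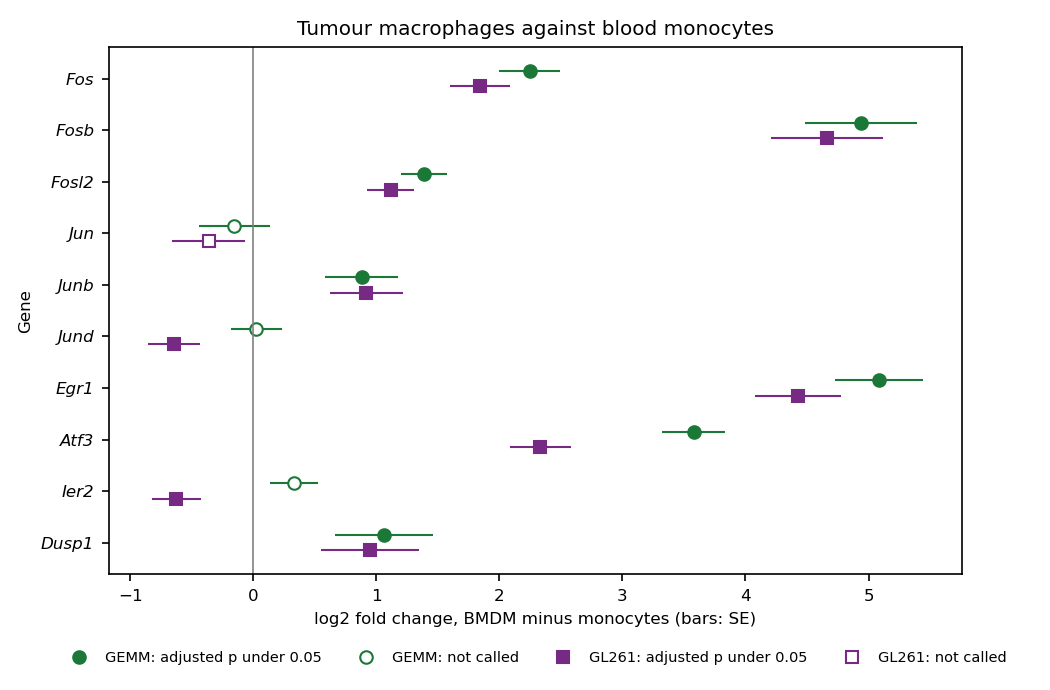
The log2 fold change of BMDM over blood monocytes is plotted for each gene with its standard error, in circles for GEMM and squares for GL261, filled where the adjusted p is under 0.05. Egr1 and Fosb lie between 4.42 and 5.08, while Jun, Jund and Ier2 lie near 0 or to its left.

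Other immediate early genes were higher in most cases. In GEMM BMDM 22 of 32 were higher and 4 lower (median log2 2.31 beside 0.077 over all genes), and in GL261 BMDM 21 were higher and 4 lower (1.73 beside 0.059). Nr4a2 was at 1.24 CPM in blood monocytes, 227 in GEMM BMDM (log2 7.54 ± 0.335 (SE), edgeR adjusted p = 9.1e-12) and 116 in GL261 BMDM (log2 6.57 ± 0.330 (SE), edgeR adjusted p = 5.92e-11). Egr2, the relative of Egr1 known from macrophage differentiation, was at 3.63 CPM against 197 and 298 (log2 5.76 ± 0.364 and 6.35 ± 0.370, SE). Among bZIP factors 5 of 15 were higher and 2 lower in GEMM BMDM, and 7 higher and 2 lower in GL261 BMDM.

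Among upstream kinases and factors, 16 of 28 were lower and 4 higher in GEMM BMDM than in monocytes, and 20 lower and 3 higher in GL261 BMDM. Their median log2 differences were -0.59 and -0.81, beside 0.077 and 0.059 over all genes. For each list here the shares of all genes were 25.7% lower and 31.6% higher in GEMM BMDM, and 28.9% and 34.1% in GL261 BMDM. Creb1 was at 113 CPM in blood monocytes, 49.6 in BMDM of GEMM and 34.3 in GL261 BMDM (log2 -1.18 ± 0.117 and -1.72 ± 0.120, SE). Crem was at 6.23, 288 and 258 CPM (log2 5.53 ± 0.290 (SE), edgeR adjusted p = 8.91e-11 in GEMM). Feedback inhibitors were higher in 10 of 19 cases and lower in 2 in GEMM BMDM, and higher in 13 and lower in 4 in GL261 BMDM. Dusp5, a nuclear phosphatase of ERK, was at 7.29 CPM in blood monocytes against 111 and 77.7 (log2 3.92 ± 0.267 and 3.41 ± 0.265, SE). Of 23 targets, 20 were higher and 2 lower in GEMM BMDM and 19 higher and 2 lower in GL261 BMDM (medians 4.21 and 3.70), among them Mmp14, a membrane protease, at 0.914 CPM in blood monocytes and 412 and 599 in BMDM.

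Heat shock genes were higher in 12 of 14 cases and lower in 1 in GEMM BMDM, beside 31.6% and 25.7% of all genes. In GL261 BMDM they were higher in 10, beside 34.1%. Their summed levels were 3038 to 3547 CPM in blood monocytes, 5739 to 8368 in GEMM BMDM and 6141 to 6869 in GL261 BMDM. The sources used here do not say how blood was handled, and the part of handling in the differences was not tested. Monocytes 64817, 64818 and 64819 carried the high neutrophil markers. Without these 3 libraries Fos differed from GEMM BMDM by 2.12, Egr1 by 5.05 and Atf3 by 3.77 on the log2 scale. Fosb moved more, to 4.07 in GEMM and 3.79 in GL261, and Dusp1 to 1.66 and 1.54. In GL261 BMDM without the same libraries Ier2 lost its call (-0.52, edgeR adjusted p = 0.102) and Jun was called lower (-0.81, adjusted p = 0.043).

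The calls of Dusp1, Junb, Jund and Ier2 rested on few libraries. Dusp1 was lost in GEMM BMDM without GEMM BMDM 68702 or without any 1 of monocytes 64818, 64819, 64820 and 64821 (edgeR adjusted p 0.0571 to 0.196), and in GL261 BMDM without any 1 of those 4 monocytes or of the 3 BMDM libraries (adjusted p 0.063 to 0.121). Junb was lost in GEMM BMDM without GEMM BMDM 68702 (edgeR adjusted p = 0.0939), Jund in GL261 BMDM without 80766 (adjusted p = 0.0826) and Ier2 in GL261 BMDM without 80769 (adjusted p = 0.0587). Without monocytes 64820 and 64821, those rich in Rn45s, Junb lost its call in both models (edgeR adjusted p = 0.103 in GEMM and 0.0801 in GL261), as did Dusp1 (0.146 and 0.203), and Jund in GL261 (0.0595). The difference of Fosb was then 5.96 in GEMM and 5.69 in GL261 (log2). Monocytes 64818 and 64819 were far closer to each other than other libraries of a group are, as were 64820 and 64821. With each of these pairs summed to 1 library, which left 3 for monocytes, 5 genes were higher in each model, and Junb (edgeR adjusted p = 0.108 and 0.0829) and Dusp1 (0.149 and 0.207) lost their calls.

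Within tumours, macrophages were compared with microglia of the same model. Fosl2 was 4.55-fold higher in GEMM BMDM than in GEMM MG (log2 2.19 ± 0.224 (SE), edgeR adjusted p = 3.37e-06) and 3.02-fold higher in GL261 BMDM than in GL261 MG (log2 1.59 ± 0.220 (SE), edgeR adjusted p = 8.92e-05). The groups did not overlap for Fosl2 and Egr1 in either model, for Atf3 and Ier2 in GEMM, and for Fosb, Jun and Junb in GL261. Of these, Atf3 and Ier2 in GEMM and Fosb and Junb in GL261 were not called. The share of all genes without overlap was not computed here, so the ranges are a description of these libraries only. Egr1 was 2.11-fold lower in GEMM BMDM (log2 -1.08 ± 0.376 (SE), edgeR adjusted p = 0.0495) and 2.79-fold lower in GL261 BMDM (log2 -1.48 ± 0.380 (SE), edgeR adjusted p = 0.0118). In GEMM 1 of the 10 genes was higher, beside 12.7% of all genes, and 1 was lower, beside 8.10%. In GL261 1 was higher, beside 10.7%, and 3 were lower, beside 6.81%, namely Egr1, Jun (log2 -1.09 ± 0.328 (SE), edgeR adjusted p = 0.0292) and Ier2 (log2 -0.80 ± 0.219 (SE), edgeR adjusted p = 0.0176). In either direction 20.8% of all genes were called in GEMM and 17.5% in GL261. Under upper-quartile scaling, which shifted the median of all genes by -0.12 in GEMM and -0.10 in GL261, the share of all calls that were higher fell from 61% to 47.1% in GEMM and from 61.1% to 47.7% in GL261, and with DESeq2 it was 50.9% and 50.6%.

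The remaining genes passed in neither model. Fosb differed by 0.71 ± 0.463 in GEMM (edgeR adjusted p = 0.306) and 0.91 ± 0.465 in GL261 (0.187), Atf3 by -0.49 ± 0.281 and -0.19 ± 0.280, and Junb by 0.0032 ± 0.336 and 0.53 ± 0.337 on the log2 scale (SE). Fos differed by -0.20 ± 0.280 and -0.040 ± 0.280, Jund by 0.085 ± 0.233 and -0.41 ± 0.233, and Dusp1 by 0.14 ± 0.453 and 0.55 ± 0.454. Jun and Ier2 in GEMM, at -0.67 ± 0.326 and -0.50 ± 0.218, also missed the threshold.

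**Figure D4:**
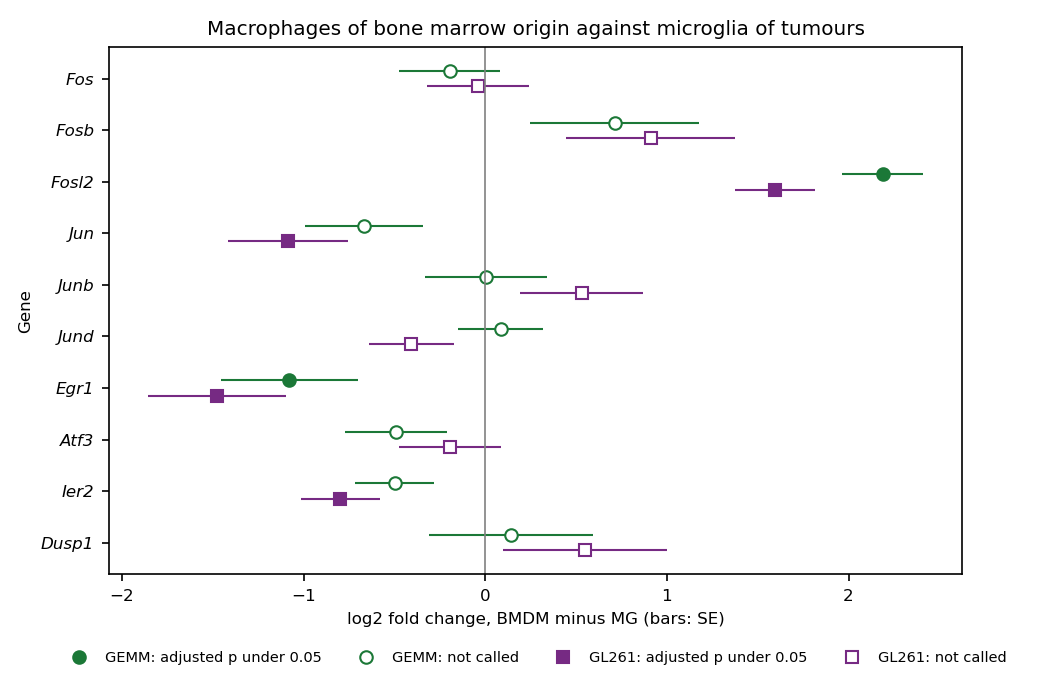
The log2 fold change of BMDM over MG of the same tumour model is plotted for each gene with its standard error, in circles for GEMM and squares for GL261, filled where the adjusted p is under 0.05. Fosl2 stands to the right at 2.19 and 1.59, and Egr1 and Jun lie to the left in both models.

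MG and BMDM libraries that carry the same number were taken as 1 tumour. Fosl2 was higher in BMDM in 3 of 3 tumours of each model, by 1.98 to 2.40 on the log2 scale in GEMM and 1.26 to 1.94 in GL261, and Fosb by 0.63 to 0.82 and 0.59 to 1.10. Egr1 was lower in 3 of 3 tumours of each model, at -1.60 to -0.77 in GEMM and -1.72 to -0.91 in GL261. Jun was lower in 3 of 3 too, at -1.32 to -0.19 and -1.66 to -0.13, and so was Ier2, at -0.70 to -0.33 and -1.08 to -0.11. Fos and Atf3 were lower in 3 of 3 tumours of GEMM and in 2 of 3 of GL261. Junb and Dusp1 were higher in 3 of 3 tumours of GL261 and in 2 of 3 of GEMM. Some of these differences were near 0, such as Fos in GEMM BB30101 (-0.067) and Junb in GL261 80767 (0.096). The interaction given below called a difference between the models for 0 of the 10 genes. The share of all genes with the same sign in 3 of 3 tumours was not computed. With the tumour number as a block (12 tumour libraries), Fosb was called higher in GEMM (log2 0.73, edgeR adjusted p = 0.00696) and in GL261 (0.92, adjusted p = 0.00359). In GL261 Fosb was also called in the same 12 libraries without the block (edgeR adjusted p = 0.0321), in a fit of only the groups compared (edgeR, 0.0443) and with limma-voom (0.0415). The block also called Dusp1 higher in GL261 (0.59, adjusted p = 0.0441) and ended the call of Jun there (adjusted p = 0.0562), so that 2 genes were higher in GEMM and 3 in GL261. Calls over all genes rose too, to 25.6% of 14356 genes in GEMM and 22.3% in GL261, from 17.3% and 13.2% in the same 12 libraries without the block.

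The calls of Fosl2 held under every setting tried, and that of Egr1 in GL261 under all but the fit of only the groups compared. Egr1 in GEMM was lost without MG 68702 (adjusted p = 0.0966), MG BB30105 (0.129), BMDM BB30101 (0.166) or BMDM BB30105 (0.134), all by edgeR. In GL261 Jun and Ier2 were both lost without MG 80766 (0.0518 and 0.0629), MG 80767 (0.108 and 0.0935) or BMDM 80766 (0.147 and 0.066), Jun also without BMDM 80767 (0.0892) and Ier2 without BMDM 80769 (0.0527). A fit of only the 2 GL261 groups called none of Jun, Egr1 and Ier2 (edgeR adjusted p = 0.103, 0.0724 and 0.182).

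Other genes of the pathway differed between the lineages in places. Among 32 other immediate early genes BMDM of GEMM tumours had 6 higher and 4 lower, and those of GL261 tumours 6 higher and 3 lower. Nr4a2 was at 227 CPM in GEMM BMDM against 17.2 in GEMM MG (log2 3.71 ± 0.316 (SE), edgeR adjusted p = 1.23e-06) and at 116 against 17.2 in GL261 (log2 2.75 ± 0.303 (SE), edgeR adjusted p = 1.05e-05). Crem was higher in BMDM by 2.11 ± 0.297 in GEMM and 2.09 ± 0.297 in GL261, and Dusp5 by 1.74 ± 0.285 and 2.12 ± 0.291 (log2, SE). Among 28 upstream genes BMDM had 6 higher and 3 lower in GEMM, and 3 higher and 1 lower in GL261, and of 19 feedback inhibitors 2 were higher and 3 lower in each. Jdp2, a bZIP partner that represses AP-1, was at 80.8 CPM in GEMM BMDM against 19.8 in GEMM MG (log2 2.02 ± 0.537 (SE), edgeR adjusted p = 0.012). Its libraries overlapped, at 29.8 to 132.9 CPM in GEMM BMDM and 11.9 to 33.1 in GEMM MG. Of 15 bZIP factors 4 were higher and 0 lower in GEMM, and 2 higher and 2 lower in GL261. Of the 23 targets 4 were higher and 5 lower in GEMM BMDM and 9 higher and 4 lower in GL261 BMDM. Mmp14 was higher in both, by 2.34 ± 0.260 and 2.43 ± 0.261. Heat shock genes were higher in 3 and lower in 1 of 14 cases in GEMM BMDM, and higher in 1 and lower in 2 in GL261 BMDM. Dendritic cell markers (5 of 5) summed to 286 to 839 CPM in GEMM BMDM against 12.3 to 44.1 in GEMM MG, and to 68.1 to 432 against 9.77 to 53.8 in GL261, and their part in the differences was not tested. Without GEMM BMDM 68702, the library with high neutrophil markers, Fosl2 differed by 2.15 and Egr1 by -1.42 in GEMM (log2).

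Whether the lineage difference itself changed between the models was tested as an interaction. It was called for 0 of the 10 genes, beside 1.63% of all genes called in either direction (0.605% higher and 1.02% lower), by edgeR, and DESeq2 and limma-voom called 0 as well. With edgeR 0 had an unadjusted p under 0.05, the smallest being that of Fosl2, whose lineage difference in GL261 minus that in GEMM was -0.59 ± 0.305 (log2, SE, edgeR adjusted p = 0.371). A miss of the threshold with 3 libraries a group does not show that the lineage differences were alike.

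Between the models, Atf3 and Ier2 were lower in GL261 in both lineages. Atf3 was 2.91-fold lower in GL261 MG than in GEMM MG (log2 -1.54 ± 0.286 (SE), edgeR adjusted p = 0.000582) and 2.37-fold lower in GL261 BMDM than in GEMM BMDM (log2 -1.25 ± 0.284 (SE), edgeR adjusted p = 0.00523). Ier2 was 1.58-fold lower in MG (log2 -0.66 ± 0.219 (SE), edgeR adjusted p = 0.0267) and 1.94-fold lower in BMDM (log2 -0.96 ± 0.220 (SE), edgeR adjusted p = 0.00538). Those were 2 of 10 genes called lower in MG, beside 15.5% of all genes, and 2 of 10 in BMDM, beside 9.46%, and 0 were higher, beside 18.8% and 10.2%. In either direction 34.3% of all genes were called in MG and 19.7% in BMDM. The ranges of both genes were apart between the models in both lineages. In BMDM so were those of Fosl2, Jund and Egr1, which were not called. The share of all genes with ranges apart was not computed for these comparisons. Jund in BMDM was just outside the threshold (log2 -0.67 ± 0.234 (SE), edgeR adjusted p = 0.052), but was called lower with DESeq2 (adjusted p = 0.0415), limma-voom (adjusted p = 0.0345) and edgeR without the filter (adjusted p = 0.042). On the log2 scale the members not called in MG lay between -0.56 ± 0.280 (Fos) and 0.32 ± 0.216 (Fosl2, SE).

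The call of Ier2 in MG was lost without GEMM MG 68702 (edgeR adjusted p = 0.0537), without GL261 MG 80769 (0.0967, log2 -0.38) and in a fit of only these 2 groups (0.156). Without GEMM MG BB30101, Fos was called lower in GL261 MG (-0.84, adjusted p = 0.0414), and without GL261 BMDM 80769 Jund was called lower in GL261 BMDM (-0.98, adjusted p = 0.0119).

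The kinases and factors upstream were lower in GL261 in 10 of 28 cases and higher in 1 in MG, and lower in 11 and higher in 0 in BMDM. For each list here the shares of all genes were 15.5% lower and 18.8% higher in MG, and 9.46% and 10.2% in BMDM. Mapk3 (ERK1) was at 76.3 CPM in GL261 MG against 139.6 in GEMM MG (log2 -0.87 ± 0.161 (SE), edgeR adjusted p = 0.000541) and at 72.1 against 116 in BMDM (log2 -0.68 ± 0.160 (SE), edgeR adjusted p = 0.0062). Among the 32 other immediate early genes 10 were lower and 3 higher in GL261 MG, and 5 lower and 3 higher in GL261 BMDM. Klf2, a factor that quiets macrophages, was at 137 against 344 CPM in MG (log2 -1.33 ± 0.272 (SE), edgeR adjusted p = 0.00124) and 33.5 against 139.9 in BMDM (log2 -2.06 ± 0.279 (SE), edgeR adjusted p = 8.45e-05). Myc was higher in GL261, at 154 against 38.6 CPM in MG (log2 1.99 ± 0.301) and 91.6 against 37.6 in BMDM (log2 1.28 ± 0.296). Of the AP-1 and bZIP factors, 4 of 15 were higher in GL261 MG and 1 in GL261 BMDM, with 0 lower in either, and Batf2 led in both, by 2.55 ± 0.329 and 1.69 ± 0.316 (log2, SE). Heat shock genes were higher in 3 of 14 cases in GL261 MG and 2 in GL261 BMDM, with 0 lower.

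The genes also varied together between libraries of 1 group. Deviations of log2(CPM + 0.5) from the group means over 20 libraries had a median Pearson r of 0.33 over the pairs of the 10 genes, and a median of -0.018 with all other genes. The highest were Atf3 with Ier2 (0.80), Junb with Ier2 (0.79) and Junb with Dusp1 (0.78), and the lowest was Fosb with Dusp1 (-0.36). Without monocytes the median was 0.46 over 15 libraries, led by Junb with Egr1 (0.89) and lowest for Fos with Jund (-0.33). Jund followed the others least in those 15 libraries, with a median r of 0.080, and Egr1 most, at 0.67. The mean deviation of the 10 genes was lowest in GL261 MG 80769, at -0.49 on the log2 scale, and highest in GL261 MG 80767, at 0.35. These values are a description, and the libraries of a number share a tumour.

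**Figure D5:**
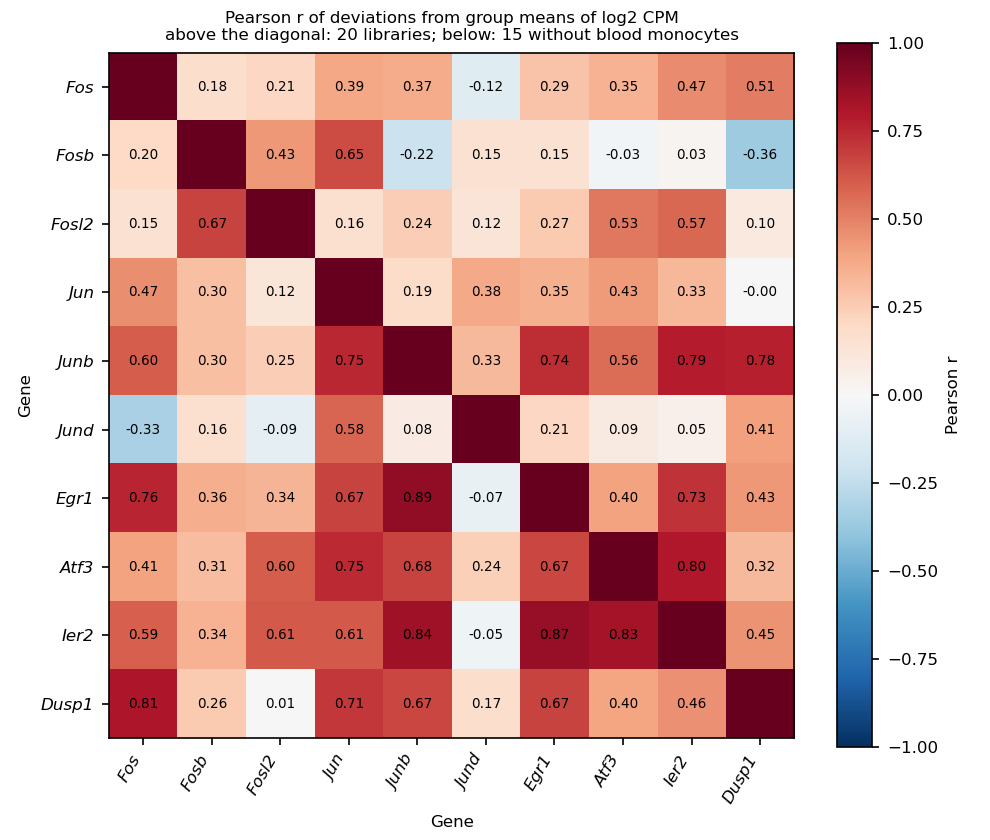
The colour and the printed value give Pearson r between the deviations of each pair of genes from their group means, above the diagonal over 20 libraries and below it over 15 libraries without blood monocytes. Most pairs are above 0, with Junb, Egr1, Ier2 and Atf3 the most closely related, and apart from Jun with Dusp1 over 20 libraries every value under 0 involves Jund or Fosb.

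Among 15178 tested genes outside the members and lists, the 8 whose deviations followed the mean of the 10 genes most closely over the 20 libraries were Ptprj (r = 0.92), Dnaja4 (0.88), Nuak1 (0.86), Taf7 (0.86), Kdm3b (0.85), Itpkb (0.85), Rreb1 (0.85) and Kif21b (0.85). Without monocytes these r were 0.83 to 0.92. Ptprj is a receptor tyrosine phosphatase, Dnaja4 a cochaperone and Taf7 a part of the general transcription factor TFIID.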

How the data were processed

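The deposited values are raw counts for each symbol. They are whole numbers, and library totals differ, so they carry no normalization by the authors. Tools listed in the submitters' processing notes, with no role or order, are STAR 2.5.0e, DESeq2, HTSeq and CASAVA 1.8, and the build is mm10. The sources used here do not give the annotation or whether counts kept to a strand. The same protocol text stands with every sample and describes the sorting of tumours. Groups and numbers came from the titles, and no library was left out.

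The table has 23329 symbols, 21798 with a count. Tests were run in R 4.3.3 with edgeR 4.0.16: filterByExpr (minimum count 10, minimum total 15), TMM scaling, and the robust quasi-likelihood test over all 20 libraries and 6 groups, with 9 comparisons and Benjamini-Hochberg adjustment over 15363 genes. Genes under an adjusted p of 0.05 are called, and "rose", "higher" and "lower" of a count refer to calls. The members and the 6 lists (131 genes) were chosen with earlier results of these data known. Named list genes are among the 3 called with the smallest p in a comparison, and the genes most alike are the 8 with the highest r. Genes of the cell type marker lists could be named too. Outside this rule Rn45s and Xist were named after their values were seen. Alternatives were upper-quartile scaling, DESeq2 1.42.0, limma-voom (limma 3.58.1), no filter, only the groups compared, the tumour number as a block, and libraries left out. The fit of 12 tumour libraries without block, the one without monocytes 64817, 64818 and 64819 and the one with 64818 and 64819, and 64820 and 64821, summed were chosen after seeing the data.

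The number pairs the libraries: over genes, deviations from the group means correlated at r = 0.36, 0.31 and 0.25 between MG and BMDM of the same number in GEMM and 0.49, 0.31 and 0.47 in GL261, against at most 0.12 between different numbers. In the 25 pairs of libraries within groups the chi-square per degree of freedom over 2000 genes was 5.86 for monocytes 64818 and 64819, 9.27 for 64820 and 64821 and 72 to 1310 for the others. All 20 were counted as separate libraries. Promoter motifs were searched on both strands.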

Additional observations from a re-analysis of the deposited data

Results flagged for a closer look

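In 3 of the 10 genes 1 blood monocyte library lay far from the other 4. Junb in monocytes 64817 was at 1700 CPM, the next at 771, so that the gap was 0.979 of the group's whole range. Dusp1 in the same library was at 1439 CPM, the next at 544 (0.782), and Fos in monocytes 64821 was at 515 CPM, the next at 340 (0.774). The critical share for 5 independent libraries is 0.71, and chance alone puts about 1 in 20 such groups above it. Only monocytes have enough libraries for this check. Monocytes 64818 and 64819 were very close to each other (chi-square per degree of freedom 5.86), as were 64820 and 64821 (9.27). The 5 libraries can thus not be taken as independent, and the rate of 1 in 20 does not apply to them. The gaps are a description only.

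The difference between tumour MG and normal MG itself differed between the models for 2 genes, by the test of GL261 MG against GEMM MG. For Atf3 it was lower in GL261 by -1.54 ± 0.286 on the log2 scale (SE, edgeR adjusted p = 0.000582) and for Ier2 by -0.66 ± 0.219 (0.0267). The difference between BMDM and monocytes differed between the models for these same 2 genes, at -1.25 ± 0.284 for Atf3 (SE, edgeR adjusted p = 0.00523) and -0.96 ± 0.220 for Ier2 (0.00538), by the test of GL261 BMDM against GEMM BMDM. The shared normal MG or monocytes cancel out, so all these values repeat those given between the models and are no further result. The microglia markers, at 4831 to 9255 CPM in GEMM MG and 834 to 3790 in GL261 MG, moved with the differences in MG, and their part was not tested.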

How the results depend on the processing

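Of the called values of the 10 genes, 264 of 286 recomputed under another scaling, tool, filter or sample set were called in the same direction, 22 lost the call and 0 reversed, and with 1 library left out 253 of 284 held, 31 lost it and 0 reversed. Of uncalled values 16 of 304 gained a call and 14 reversed, and with 1 library left out 3 of 356 gained a call and 25 reversed. Fits of few groups have fewer libraries to estimate the spread from. Depth limits monocytes most, and Fosb there rests on the lowest CPM of the 10 genes.

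In GEMM BMDM against MG, 2 genes were lower with upper-quartile scaling, DESeq2 or only the groups compared (Egr1 and Ier2) and 0 with no filter or the 12 tumour libraries without block. In GEMM MG against normal MG 1 gene, Fosl2, was higher with upper-quartile scaling, DESeq2 and limma-voom. In GL261 BMDM against MG 2 genes (Fosl2 and Fosb) were higher with limma-voom, only the groups compared or the 12 tumour libraries without block, and 0 were lower with only the groups compared. Only the groups compared also gave 0 genes higher in GL261 MG against normal MG, 1 lower in GL261 MG against GEMM MG, 833 of all genes called in GL261 BMDM against MG (2692 otherwise) and 1765 in GL261 BMDM against GEMM BMDM (3027 otherwise). In the interaction 250 of all genes were called, 808 with DESeq2, 156 with no filter and 21 with only the groups compared or the 12 tumour libraries. Without monocytes 64820 and 64821, 1 gene was lower in GL261 BMDM than in monocytes. The median r of the pairs was 0.46 without monocytes.

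With the replicate block by tumour number 2 genes were higher in GEMM BMDM (Fosl2 and Fosb) and 3 in GL261 BMDM (Fosl2, Fosb and Dusp1), Jun lost its call in GL261, and no other call of a member changed. The fit of the same 12 libraries without block called 1 and 2. Over all 14356 genes the block called 25.6% in GEMM and 22.3% in GL261, against 17.3% and 13.2% without it.

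Values that changed sign were all uncalled. Junb in GEMM BMDM against MG was -0.12 with upper-quartile scaling, -0.062 with DESeq2, -0.014 with no filter and -0.0056 with only the groups compared, and Jund was -0.035 with upper-quartile scaling. Jund in GEMM BMDM against monocytes was -0.031, -0.088 and -0.024 under the first, second and last of these, -0.099 without monocytes 64817, 64818 and 64819, -0.085 with the close monocyte pairs summed and -0.0056 with Rn45s removed. Junb in GL261 BMDM against GEMM BMDM was -0.018 with no filter. Jun against monocytes was 0.25 in GEMM and 0.040 in GL261 without monocytes 64820 and 64821. The cause of these changes was not tested.

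With 1 library left out, 2001 to 2902 of all genes were called in GEMM BMDM against MG and 0 to 1 of the 10 genes were lower, 1695 to 2550 of all genes were called in GL261 BMDM against MG and 1 to 3 of the 10 genes were lower, 102 to 459 of all genes were called in the interaction. In the same way 5365 to 5965 of all genes were called in GEMM MG against normal MG and 0 to 1 of the 10 genes were higher and 6 to 7 of the 10 genes were lower, 7860 to 8514 of all genes were called in GL261 MG against normal MG, 4012 to 5318 of all genes were called in GL261 MG against GEMM MG and 1 to 3 of the 10 genes were lower. In the same way 2098 to 2618 of all genes were called in GL261 BMDM against GEMM BMDM and 2 to 3 of the 10 genes were lower, 7823 to 8562 of all genes were called in GEMM BMDM against monocytes and 5 to 7 of the 10 genes were higher, 9026 to 9459 of all genes were called in GL261 BMDM against monocytes and 6 to 7 of the 10 genes were higher and 1 to 2 of the 10 genes were lower. Over the same settings, the uncalled differences whose sign changed were Fos at -0.60 to 0.0035, Jund at -0.10 to 0.18, Junb at -0.30 to 0.062 and Dusp1 at -0.28 to 0.34 in GEMM BMDM against MG, Fos at -0.20 to 0.089 and Atf3 at -0.47 to 0.083 in GL261 BMDM against MG, Fos at -0.015 to 0.59 in the interaction, Fosb at -0.54 to 0.23 and Atf3 at -0.39 to 0.10 in GEMM MG against normal MG, and Jun at -0.11 to 0.42 and Egr1 at -0.55 to 0.038 in GL261 MG against GEMM MG, Jun at -0.51 to 0.017, Dusp1 at -0.38 to 0.25 and Junb at -0.093 to 0.21 in GL261 BMDM against GEMM BMDM, Jund at -0.071 to 0.15 and Jun at -0.40 to 0.033 in GEMM BMDM against monocytes.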

Other observations

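Some listed targets and feedback inhibitors differed between the models. Timp1, an inhibitor of matrix proteases, was at 71.9 CPM in GL261 MG against 0.968 in GEMM MG (log2 6.19 ± 0.607 (SE), edgeR adjusted p = 2.94e-06) and at 36.2 against 2.40 in BMDM (log2 3.91 ± 0.537 (SE), edgeR adjusted p = 9.7e-05). Spry4, a brake on growth factor signalling, was at 24.0 against 3.55 CPM in MG (log2 2.76 ± 0.499 (SE), edgeR adjusted p = 0.000468) and 7.62 against 1.50 in BMDM (log2 2.34 ± 0.501 (SE), edgeR adjusted p = 0.00339). Hmox1, the heme-degrading enzyme, was lower in GL261 MG, at 298 against 1075 CPM (log2 -1.85 ± 0.333 (SE), edgeR adjusted p = 0.000451). Markers of oligodendrocyte precursors or glioma cells summed to 363 to 782 CPM in GL261 MG and 127 to 184 in GEMM MG, and their part was not tested.

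Fosl1 (Fra-1), the Fos family gene outside the 10 described, was hardly present, with means of 2.44 CPM in GL261 MG and 0.134 in GEMM MG (log2 4.15 ± 0.973 (SE), edgeR adjusted p = 0.00489).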
